A study of Homo sapiens with 8 samples.

Results

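The cytosolic ribosomal protein genes were examined in RNA-seq libraries of A498 and 786-O, established cell lines of clear cell renal cell carcinoma (ccRCC). They were chosen by name: coding entries with a current symbol of RPL or RPS and a number, with RPLP0, RPLP1, RPLP2 and RPSA, and without pseudogenes, the RPS6K kinases and RPS19BP1. This gave 90 of 18693 genes, namely 31 genes of the 40S subunit, 46 of the 60S subunit, 10 paralogs and 3 readthrough symbols that join a ribosomal protein gene to its neighbor. Of the 90 members, 87 had a mean of at least 1 FPKM (fragments mapped to a transcript, divided by its length and by the size of the library) over the libraries and were tested. RPL13A, RPL3L and RPL17-C18orf32 were below this level. Levels of the Y-linked paralogs RPS4Y1 and RPS4Y2 are not given, although both are in the counts.

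The study asked what follows when SLINKY, a long intergenic non-coding RNA, is knocked down. There were 4 groups of 2 libraries each: A498 and 786-O with a non-targeting control siRNA (NTC), and A498 and 786-O with a SLINKY siRNA (KD), where the KD replicates are siRNA1 and siRNA2. The siRNA dose was 50 nM for 16 h in every library, so the controls were transfected as well. A498 was grown in DMEM and 786-O in RPMI-1640, and the cell line cannot be told apart from its medium. Each siRNA is 1 library in each line, and no label says that libraries came from separate cultures, so p-values measure the spread between these libraries, which may be technical.

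Ribosomal proteins coat the ribosomal RNA of the small (40S) and the large (60S) subunit, and a ribosome holds each core protein once, apart from the stalk proteins P1 and P2. Their mRNAs are among the most abundant of dividing cells, and many begin with a run of pyrimidines, the 5′ terminal oligopyrimidine (TOP) element, through which mTOR signaling sets their translation. Some core genes have paralogs whose proteins can take the same place, several of them known for expression in testis or muscle.

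The start of a TOP mRNA can be read from the RefSeq promoters of GRCh38.p14, which were matched for 62 of the 77 core genes. A C at 5 bases or fewer from the annotated start that opened an unbroken run of at least 5 C or T on the sense strand was present in 80.6% of these core promoters, against 21.1% of all 27305 promoters of the same length. A run of at least 8 was present in 64.5% of the core promoters and in 5.36% of all promoters. The paralogs were mixed, with 2 of 6 matched promoters holding a run of at least 5. The 30 bases around the start are shown for 2 paralog pairs and for RPL12 and RPL28, which differed between the cell lines in opposite directions. The sense strand is printed with the start at base 16, and capitals mark the run where there is one.
RPL22 (chr1:6199581-6199610, minus strand): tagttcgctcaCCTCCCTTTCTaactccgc
RPL22L1 (chr3:170870181-170870210, minus strand): cgcggccgtagCTTCCTCTCTgctctcgcg
RPS27 (chr1:153990747-153990776, plus strand): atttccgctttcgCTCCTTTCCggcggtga
RPS27L (chr15:63157463-63157492, minus strand): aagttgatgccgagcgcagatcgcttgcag
RPL12 (chr9:127451392-127451421, minus strand): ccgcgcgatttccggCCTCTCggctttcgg
RPL28 (chr19:55385917-55385946, plus strand): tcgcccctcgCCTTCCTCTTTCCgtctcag
RPL22L1 shares such a run with its partner RPL22, whereas the window of RPS27L holds none and that of RPS27 does. A run in these windows is a description of letters and not a measured TOP element.

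The libraries were of similar make-up. The reads implied by the Cufflinks interval over coding entries ranged from 16287881 in A498 with siRNA2 to 42175637 in the second 786-O NTC library. SLINKY was at 14.6 and 16.1 FPKM in the A498 NTC libraries, 1.64 with siRNA1 and 3.01 with siRNA2. In 786-O it was at 1.45 and 1.39 FPKM in the NTC libraries, 0.0569 with siRNA1 and 0.595 with siRNA2, so it was lower with each siRNA in both lines. The kidney marker PAX8 was between 39.2 and 48.1 FPKM in every library, and KRT8, KRT18 and VIM were at 216 FPKM or more. PAX2, another kidney marker, was low, at 1.06 to 1.84 FPKM, and VEGFA was at 21.5 to 33.9 FPKM. CA9, a usual marker of ccRCC, was at 0.559 FPKM or less in A498 and at 0.0229 or less in 786-O. Of 8 markers of blood, endothelial and liver cells, all were under 0.5 FPKM, and PTPRC and CD3E were listed at 0.

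Ribosomal protein mRNA made up more of the 786-O libraries than of the A498 libraries. The members together held 71205 ± 1958 FPKM in A498 and 91632 ± 1036 FPKM in 786-O (SD, n = 4 libraries of each line), a ratio of 1.29. As a share of all coding FPKM this was 14.2% ± 0.191 in A498 and 17.8% ± 0.281 in 786-O, and the lowest 786-O library (17.6%) was above the highest A498 library (14.5%). The 60S members differed more, with sums of 40171 ± 1071 and 53673 ± 668 FPKM and a ratio of 1.34, than the 40S members, with 30142 ± 884 and 36502 ± 397 FPKM and a ratio of 1.21. The sum over all coding genes differed by a ratio of 1.03. The median core gene stood at 741 ± 27.8 FPKM in A498 and 972 ± 11.5 FPKM in 786-O. These are sums over genes chosen together and were not tested. In bulk RNA, more ribosomal protein mRNA per cell and less of other RNA cannot be told apart.

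**Figure D1:**
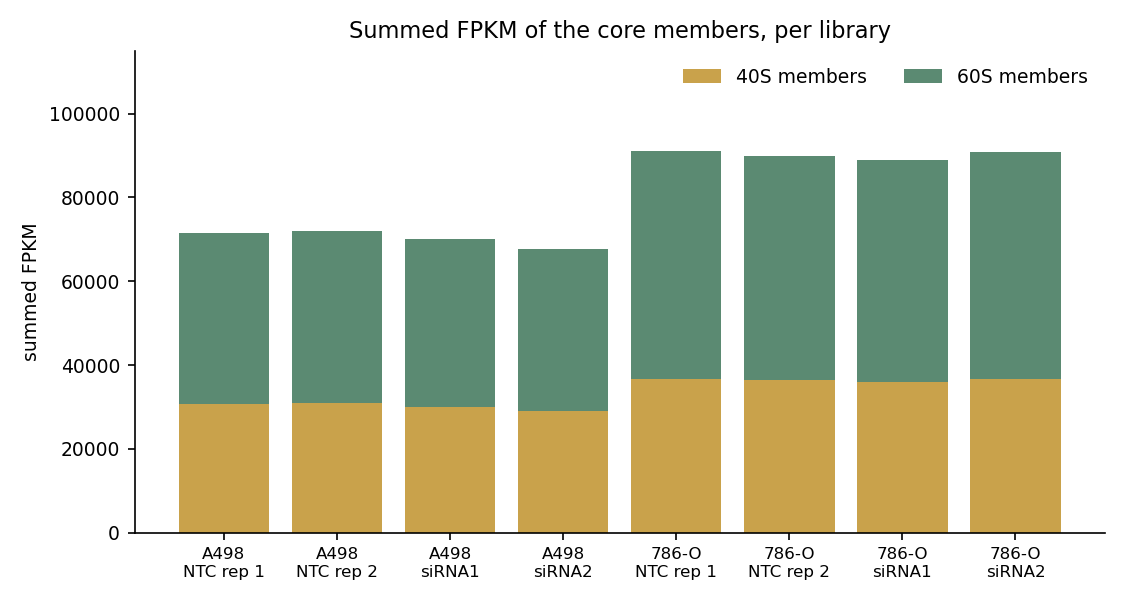
Summed FPKM of the 31 genes of the 40S and the 46 genes of the 60S subunit in each of the 8 libraries, stacked; each bar is 1 library. The 4 bars of 786-O are taller than the 4 bars of A498, and the siRNA libraries stand close to the NTC libraries of their line.

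The members spanned a wide range of levels, although their proteins stand in equal number in the ribosome. RPLP1, a stalk protein, was the highest by mean, at 2689 ± 121 FPKM in A498 and 3618 ± 175 in 786-O. RPL8, RPL37A and RPL35 came next. The upper 10 core genes of a library held 31.8% to 33.5% of the core sum. Of the 100 highest genes of a library, 39 to 40 were members in A498 and 46 to 47 in 786-O. At the lower end stood RPL17-C18orf32, RPL13A, RPL3L, RPS10-NUDT3 and RPSA, and for RPL13A and RPSA the reads of the locus lay in other entries, as described below.

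Most members were higher in 786-O. On log2(FPKM + 0.1), with limma and a Benjamini-Hochberg adjusted p of 0.05 over 10503 genes, 74 of the 87 tested members were called between the cell lines, where 82.1% of all genes tested were called. The share called was thus near that of all genes. By direction, 60 were higher in 786-O, where 41.9% of all genes were called in that direction, and 14 were higher in A498, where 40.2% were. The median log2 difference (A498 minus 786-O) was -0.45 over the members and -0.02 over all genes tested. Without regard to the fit, the 4 libraries of 786-O all lay above those of A498 for 58 members (39.6% of all genes), and the 4 libraries of A498 all lay above for 13 members (37.7% of all genes). With the NTC libraries alone, 2 against 2, 69 members were called, 59 of them higher in 786-O and 10 higher in A498. Most of the 10503 genes were called in that fit too, so the count alone does not set the members apart. The calls of all genes were not split by direction for that fit. No list of members was tested as a set.

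**Figure D2:**
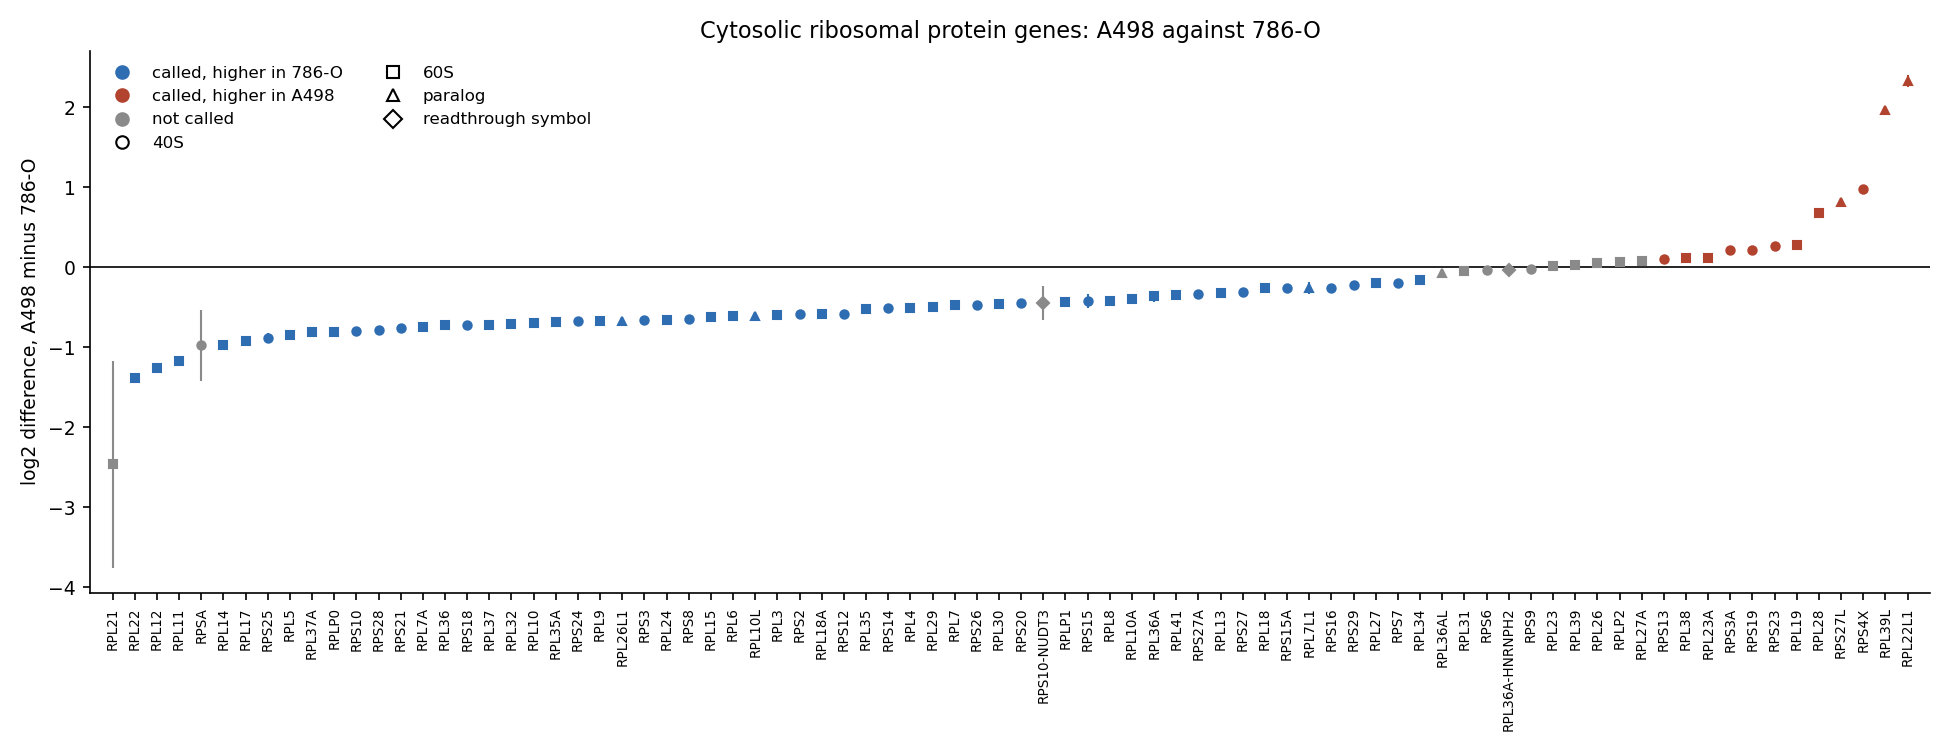
Log2 difference (A498 minus 786-O) of 82 tested members, without the Y-linked genes and 3 core genes of the 40S subunit that are not reported here by name, in order of the difference, with the standard error of the limma fit; color gives the call and shape the kind of gene. Most points lie between 0 and -1, and RPL22L1 and RPL39L stand at 2.33 and 1.97. RPL21 and RPSA have by far the widest errors.

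Among the 60S genes, 34 of 45 tested were called higher in 786-O (41.9% of all genes) and 4 were called higher in A498 (40.2% of all genes), with a median log2 difference of -0.50. Of those called, RPL22, an RNA-binding protein of the large subunit that is not needed for most translation, differed the most. RPL22 (chr1:6245080-6259679, hg19) was at 73.9 and 86.3 FPKM in the A498 NTC libraries, 77.6 with siRNA1 and 79.3 with siRNA2. In 786-O it was at 218 and 195 FPKM in the NTC libraries, 205 with siRNA1 and 209 with siRNA2. The lines were far apart and no library crossed over, a log2 difference of -1.38 ± 0.06 (SE, adjusted p = 3.42e-08) or 2.61-fold more in 786-O. RPL12, which sits at the base of the stalk, followed with 512 to 548 FPKM in A498 and 1249 to 1326 in 786-O (-1.26 ± 0.04, adjusted p = 3.22e-09). 

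RPL5 and RPL11 carry the 5S ribosomal RNA into the large subunit and, when free, bind the ubiquitin ligase MDM2. Both were higher in 786-O. RPL11 (chr1:24018269-24022915) was at 1396 and 1470 FPKM in the A498 NTC libraries, 1395 with siRNA1 and 1367 with siRNA2. In 786-O it was at 3396 and 3000 FPKM in the NTC libraries, 3081 with siRNA1 and 3160 with siRNA2, which moved it from rank 18 among the members in A498 to rank 4 in 786-O. The log2 difference was -1.17 ± 0.04 (adjusted p = 2.03e-08). RPL5 was at 428 ± 20.2 FPKM in A498 and 769 ± 28.2 in 786-O (-0.85 ± 0.05, adjusted p = 2.38e-07). Of the stalk proteins, which recruit the translation factors to the ribosome, RPLP0 (-0.81 ± 0.03, adjusted p = 3.36e-08) and RPLP1 (-0.43 ± 0.04, adjusted p = 1.36e-05) were higher in 786-O. RPLP2, the partner of RPLP1, was at 2371 ± 151 and 2267 ± 80.3 FPKM and was not called (0.06 ± 0.04, adjusted p = 0.220). The ratio of RPLP1 to RPLP2 mRNA therefore differed between lines, although both proteins enter the stalk together.

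Other 60S genes with differences of this size were RPL14 (-0.97), RPL17 (-0.92) and RPL37A (-0.81 on the log2 scale). With the highest entry of each gene in place of the sum, RPL17 was at -1.39, in size above RPL22. RPL14 was tight within each line, at 378 to 386 FPKM in A498 and 724 to 768 in 786-O. At the other end, RPL31, RPL23, RPL39, RPL26, RPLP2 and RPL27A were not called, and their log2 differences lay between -0.04 and 0.08. RPL28 was the 60S core gene with the largest difference toward A498, at 994 and 878 FPKM in the NTC libraries, 834 with siRNA1 and 814 with siRNA2. In 786-O it was at 534 and 570 FPKM in the NTC libraries, 526 with siRNA1 and 567 with siRNA2 (log2 difference 0.68 ± 0.05, adjusted p = 1.63e-06). RPL19 (0.29), RPL23A (0.12) and RPL38 (0.11) were the other 60S core genes called higher in A498.

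Among the 40S genes, 21 of 31 were called higher in 786-O (41.9% of all genes) and 7 higher in A498 (40.2% of all genes), with a median log2 difference of -0.42. Of those called, the largest differences toward 786-O were those of RPS25 (-0.88 ± 0.06), which some viral and cellular internal ribosome entry sites require, RPS10 (-0.79 ± 0.04), RPS28 (-0.78 ± 0.04) and RPS21 (-0.76 ± 0.04). RPS25 was at 520 ± 28.9 FPKM in A498 and 962 ± 103 in 786-O, and RPS21 at 1423 ± 58.3 and 2406 ± 120. RPS6, the substrate of the S6 kinases, was not called, with a log2 difference of -0.03 ± 0.06. RPS9 was not called either (-0.03 ± 0.04).

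RPS4X stood apart from the other 40S genes. This X-linked gene (chrX:71492453-71497141) encodes a core protein of the small subunit. RPS4X was at 2283 and 2276 FPKM in the A498 NTC libraries, 2297 with siRNA1 and 2245 with siRNA2. In 786-O it was at 1143 and 1172 FPKM in the NTC libraries, 1152 with siRNA1 and 1127 with siRNA2. The libraries of each line lay within a few percent of each other, and the level in A498 was 1.98-fold that in 786-O (log2 difference 0.99 ± 0.03, adjusted p = 5.20e-09). RPS4X ranked 5th among the members in A498 and 32nd in 786-O. Among the other 40S genes called higher in A498, which differed less, were RPS23 (0.27 ± 0.04), RPS19 (0.22), RPS3A (0.21) and RPS13 (0.11).

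The 4 X-linked core genes did not move as a group. RPL10 (-0.69 ± 0.03, adjusted p = 1.18e-07), a protein of the 60S peptidyl transferase region, and RPL36A (-0.36 ± 0.07, adjusted p = 9.10e-04) were higher in 786-O. RPL39, a small protein of the exit tunnel, was not called (0.03 ± 0.03, adjusted p = 0.483), and RPS4X was higher in A498.

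Of the 8 paralogs that are not Y-linked, 7 were tested and 6 were called, where 82.1% of all genes were. Of these, 3 were higher in A498 (40.2% of all genes) and 3 higher in 786-O (41.9% of all genes), shares near those of all genes. RPL22L1, RPL39L and RPS27L were higher in A498 while their partners RPL22 and RPS27 were higher in 786-O and RPL39 was not called. RPL26L1, RPL10L and RPL7L1 were higher in 786-O. RPL36AL was not called.

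RPL22L1 (chr3:170582665-170588045) encodes a protein close to RPL22, which is known to hold the paralog's level down in mouse cells. RPL22L1 was at 108 and 135 FPKM in the A498 NTC libraries, 127 with siRNA1 and 126 with siRNA2. In 786-O it was at 25.3 and 22.6 FPKM in the NTC libraries, 25.4 with siRNA1 and 24.9 with siRNA2. This was the largest difference of the called members that are not Y-linked, 5.03-fold more in A498 (log2 difference 2.33 ± 0.07, adjusted p = 4.93e-09). Since RPL22 differed the other way, the paralog made up 61.0% ± 1.16 of the summed FPKM of the pair in A498 and 10.6% ± 0.292 in 786-O (n = 4). The order of the pair was turned over: RPL22L1 was above RPL22 in each A498 library and below it in each 786-O library. The reads implied by the Cufflinks interval were 5579 to 10083 for RPL22L1 in A498 and 1618 to 2576 in 786-O.

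RPL39L (chr3:186838741-186857263) is a paralog of RPL39 known for its level in testis. It was at 160 and 167 FPKM in the A498 NTC libraries, 161 with siRNA1 and 156 with siRNA2, against 39.0 and 43.3 FPKM in the 786-O NTC libraries, 40.7 with siRNA1 and 40.7 with siRNA2. The level in A498 was 3.93-fold higher (1.97 ± 0.04, adjusted p = 6.76e-10), while RPL39 stood at 1074 ± 20.3 and 1055 ± 23.1 FPKM. The share of RPL39L in the pair was 12.7% to 13.3% in A498 and 3.54% to 4.05% in 786-O. RPL39L therefore differed with little difference in its partner, unlike RPL22L1.

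RPS27L (chr15:63445539-63449741) is a paralog of RPS27. It was at 206 ± 11.4 FPKM in A498 and 117 ± 2.63 in 786-O (0.82 ± 0.05, adjusted p = 2.83e-07), and RPS27 was at 343 ± 12.6 and 424 ± 28.2 FPKM (-0.31 ± 0.05, adjusted p = 5.36e-04). The paralog share was 37.6% ± 0.575 in A498 and 21.7% ± 1.43 in 786-O.

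RPL26L1 was higher in 786-O (-0.66 ± 0.05, adjusted p = 1.55e-06) while RPL26 was not called, and its share of the pair was 6.02% ± 0.138 in A498 and 9.55% ± 0.793 in 786-O. RPL10L, a retrogene known from testis, was at 13.4 to 14.8 FPKM in A498 and 20.0 to 22.2 in 786-O and was higher in 786-O like RPL10, with shares of 7.27% ± 0.105 and 6.92% ± 0.354. RPL36AL made up more of its pair than RPL36A in both lines, at 76.5% ± 0.596 and 72.6% ± 2.32. The readthrough symbol RPL36A-HNRNPH2, at 34.1 to 37.5 FPKM, was not counted with RPL36A. RPL7L1 was low, at 6.63 ± 0.469 and 7.93 ± 0.473 FPKM. RPL3L, known from heart and skeletal muscle, was at 0.0640 FPKM or less in every library. 

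**Figure D3:**
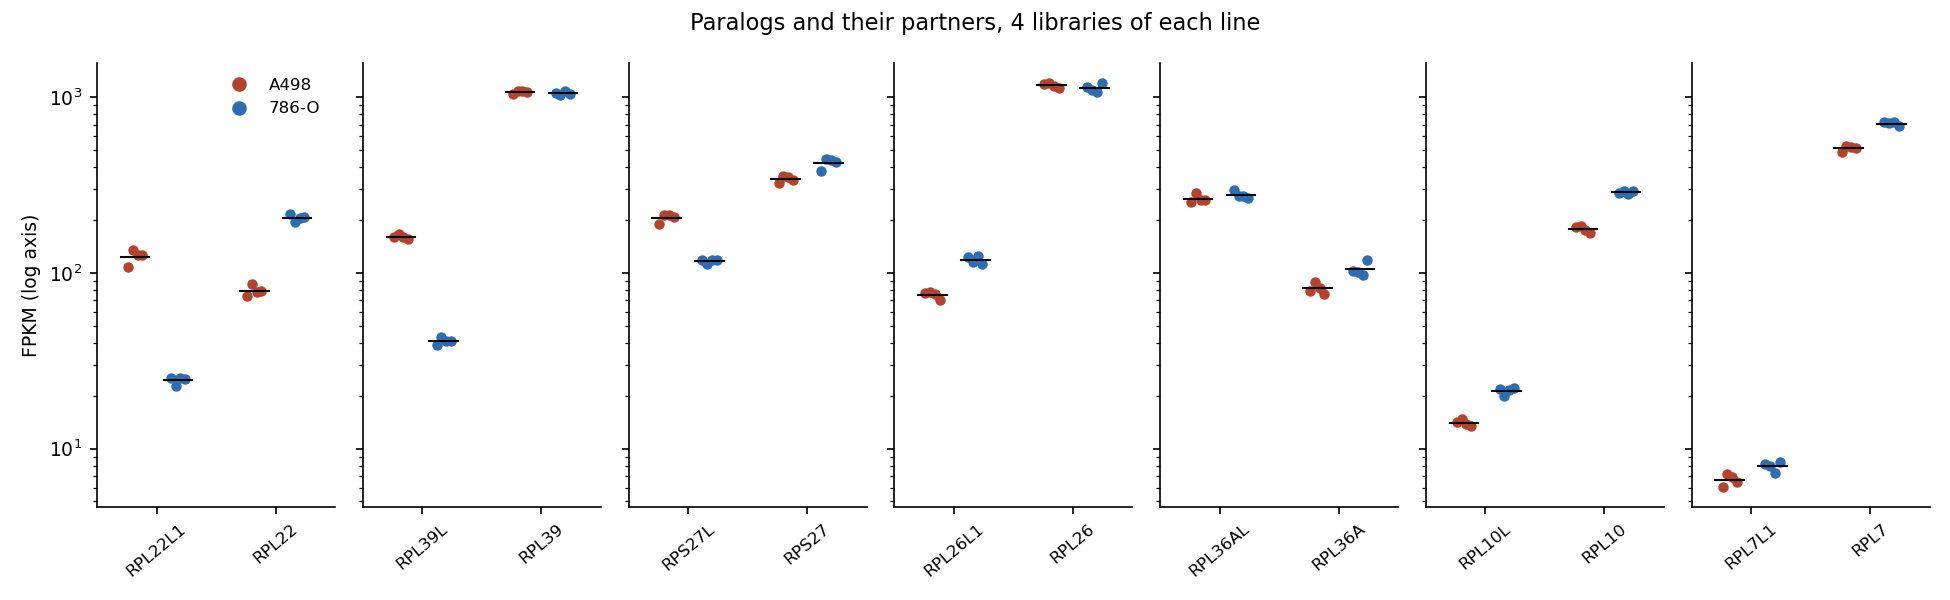
FPKM on a log axis of 7 paralogs (left of each panel) and their partners (right) in the 4 libraries of A498 and the 4 of 786-O; each point is 1 library and each bar the mean of a line. RPL22L1 lies above RPL22 in A498 and below it in 786-O, RPL39L lies higher in A498 while the points of RPL39 overlap, and the other pairs keep their order in both lines.

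How far a level belongs to a single gene depends on how many copies of its sequence the genome holds, and reads were 36 bases long. In the coding sequence of the GENCODE canonical transcript, a median of 67.6% of the 36-base windows of the 76 tested core genes occurred elsewhere in GRCh37 without a mismatch, from 7.35% in RPLP2 to 100% in 10 genes. The 3 paralogs called higher in A498 had few such windows: 12.9% of the windows of RPL22L1, 12.4% of RPL39L and 3.64% of RPS27L occurred elsewhere. No window of RPL22L1 was shared with RPL22, and the coding sequences were 64.9% identical. RPL39L was 94.9% identical to RPL39 over 156 coding bases, and 7.44% of its windows were shared with it. Several partners were less clear, with 91.5% of the windows of RPL22 and 93.8% of those of RPL10 found elsewhere. For RPL39, RPS27, RPL36A and RPL7 it was 100%. The shares of the pairs rest on these partner levels. Core genes with under 50% copied windows had a median log2 difference between lines of -0.26 (23 genes, 13 called higher in 786-O and 7 in A498), those with 50% to 90% had -0.50 (33 genes, 27 and 2), and those with 90% to 100% had -0.53 (20 genes, 15 and 2). Over all genes tested, 41.9% were called higher in 786-O and 40.2% higher in A498. The class with under 50% copied windows came nearest to these shares. The sign of the median was shared and its size was smaller in the genes with fewer copies. The part of the copies in the difference was not tested.

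In a few members the named coding entry did not hold the reads of its locus. RPL13A, which besides its place in the 60S subunit is known as part of an inhibitor of translation, was at 0.000451 FPKM or less in its coding entries in every library. At the same locus on chromosome 19 (chr19:49990811-49995564), a non-coding RPL13A entry held 221 to 269 FPKM and an entry named RPL13AP5 held 416 to 530 FPKM. Their sum was 672 ± 35.2 FPKM in A498 and 762 ± 24.1 in 786-O. For RPSA, the laminin receptor and a 40S protein, the named entry held 0.842 to 7.59 FPKM, whereas a coding entry with no current symbol within the same span (chr3:39449111-39454032) held 271 to 278 FPKM in A498 and 581 to 661 in 786-O. RPSA by its named entry was not called (-0.97 ± 0.44, adjusted p = 0.0685), and with the other entry added, an alternative chosen after seeing the data, it was called higher in 786-O (-1.19, adjusted p = 1.22e-08).

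RPL21 was the third such member. Its coding entry (chr13:27825692-27830702) was at 21.5 and 7.79 FPKM in the A498 NTC libraries, 16.1 with siRNA1 and 0.00120 with siRNA2, and in 786-O at 15.4 and 13.1 FPKM in the NTC libraries, 23.5 with siRNA1 and 53.0 with siRNA2. The libraries of a line disagreed by far more than for any other member. An entry named RPL21P28 that spans the same locus held 99 to 183 FPKM. The 2 entries summed held 121 and 135 FPKM in the A498 NTC libraries, 124 with siRNA1 and 128 with siRNA2, against 198 and 187 FPKM in the 786-O NTC libraries, 188 with siRNA1 and 199 with siRNA2. The sum was even within each line and higher in 786-O without overlap, while the coding entry alone was not called (-2.46 ± 1.30, adjusted p = 0.107). In all, 26 ribosomal protein pseudogenes had entries of their own, 21 of them with a mean of at least 1 FPKM, led by RPL23P8 at 532 to 599 FPKM.

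Members lay on nearly every chromosome, and their differences were set beside those of the other genes there, since cell lines differ in chromosome copies. Copy number was not measured in these data. Of 83 tested members placed in this way, 69 lay below the median log2 difference (A498 minus 786-O) of the other tested genes of their chromosome and 14 above it. In 15 of the 16 chromosomes with at least 3 members, the median of the members was the lower, and chromosome 11 was the exception. The 6 members of chromosome 17 (RPL19, RPL23, RPL23A, RPL26, RPL27 and RPL38) had a median of 0.08, among 647 other genes with a median of 0.43. They held 3 of the 4 core 60S genes called higher in A498, although each lay below the median of its chromosome.

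Chromosome 3 is of interest in ccRCC because its short arm is commonly lost. The short-arm members RPL14, RPL15, RPL29 and RPL32 were called higher in 786-O, at log2 differences of -0.97, -0.62, -0.50 and -0.71, and RPSA was described above. The long-arm genes RPL24 (-0.65) and RPL35A (-0.68) were higher in 786-O too, whereas the paralogs RPL22L1 and RPL39L of the same arm had the largest differences toward A498. The 570 other tested genes of chromosome 3 had a median of -0.32. The 5 members of chromosome 1 were all lower in A498 than the median of that chromosome (-0.21), with a median of -0.85.

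**Figure D4:**
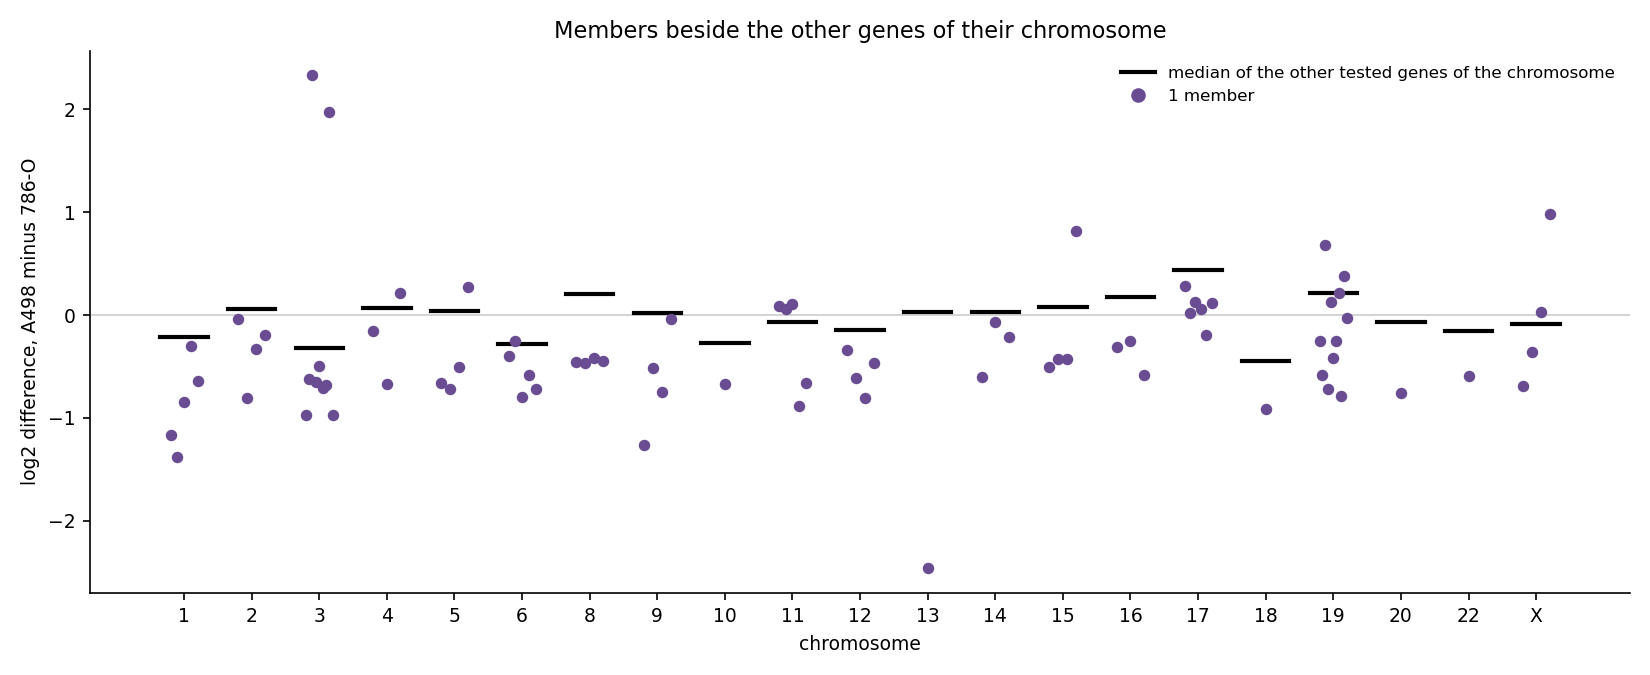
Log2 difference (A498 minus 786-O) of each tested member, as 1 point, by chromosome, with a bar for the median of the other tested genes of that chromosome; readthrough symbols and Y-linked genes are left out. Most points lie below the bar of their chromosome, and the 2 high points of chromosome 3 are RPL22L1 and RPL39L.

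Genes that work with the ribosome, or whose mRNAs are known to carry TOP elements, were read from lists. Of 3 listed ribosomal proteins outside the naming rule, 2 were called higher in 786-O (41.9% of all genes) and 1 was not called. Those called were FAU, which encodes eS30 (-0.37 ± 0.04, adjusted p = 1.01e-05), and RACK1, the scaffold on the 40S head (-0.46 ± 0.04, adjusted p = 3.36e-06). Of 15 genes outside the members that are known to carry TOP elements, 12 were called higher in 786-O (41.9% of all genes). In A498, 2 of them were called higher (40.2% of all genes). Their median log2 difference was -0.42, close to that of the members. The largest were PABPC1, the poly(A)-binding protein (-1.13), NPM1, a nucleolar chaperone (-0.99), HNRNPA1 (-0.76), and the elongation factors EEF1A1 (-0.63) and EEF2 (-0.59). TPT1, a TOP mRNA as well, was higher in A498 (0.65 ± 0.05, adjusted p = 1.58e-06).

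Ribosome assembly factors also lay mostly on the side of 786-O, with 25 of 34 called there (41.9% of all genes). In A498, 2 were called higher (40.2% of all genes), and the median was -0.54. TSR2, the chaperone of RPS26 (-1.40), NOP56 of the box C/D snoRNPs (-1.16), PDCD2, which escorts RPS2 (-1.15), NOP14 (-1.01), nucleolin NCL (-0.99) and BOP1 (-0.94) had the largest differences. Their clients differed less, with RPS26 at -0.47 and RPS2 at -0.58. Of 12 genes of ribosomal RNA synthesis (median -0.28), 8 were called higher in 786-O (41.9% of all genes) and 2 higher in A498 (40.2% of all genes). The largest were POLR1A (-0.75), POLR1E (-0.68), POLR1C (-0.61), TAF1D (-0.55), TAF1A (-0.42) and TAF1B (-0.33).

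The medians of the other lists lay nearer to 0. Of 24 initiation factors outside the TOP list, 11 were called higher in 786-O (41.9% of all genes) and 4 higher in A498 (40.2% of all genes). The share toward 786-O was 45.8%, near that of all genes, and the median was -0.09. EIF3I (-1.17), EIF3J (-0.42), EIF5B (-0.38) and EIF4A2 (-0.36) were on the side of 786-O, and EIF3K (0.67) and EIF1 (0.47) on that of A498. The 77 mitochondrial ribosomal proteins, a list added after the data were examined, had a median of -0.23. Of these, 47 were called higher in 786-O (41.9% of all genes) and 15 higher in A498 (40.2% of all genes). Of 12 genes that control ribosome production (median -0.07), 4 were called higher in 786-O (33.3%, against 41.9% of all genes) and 3 higher in A498 (40.2% of all genes). Among these were MTOR (-1.03), EIF4EBP2 (-0.57) and RPS6KB2 (-0.25) on the side of 786-O and MDM2 (1.91) and RPTOR, the mTORC1 subunit (0.53), on that of A498. MYC was called higher in 786-O as well (-0.20 ± 0.04, adjusted p = 0.00104). Its NTC libraries were close, at 42.44 and 42.9 FPKM in A498 and 45.74 and 44.06 in 786-O. With siRNA1 and siRNA2, MYC was at 43.51 and 41.3 FPKM in A498 and 53.05 and 53.81 in 786-O. The lines thus lay further apart in the siRNA libraries than in the NTC libraries. The differences between lists were not tested.

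No member passed the test with knockdown of SLINKY. With limma, 0 of 87 members were called over both lines, where 1 of 10503 genes (0.00952%) was called, and 4 members had an unadjusted p under 0.05 where 1061 of all genes did. In A498, 0 members were called (0.00952% of all genes) and 5 had an unadjusted p under 0.05, where 641 of 10503 genes did. In 786-O, 0 members were called (0% of all genes) and 0 had an unadjusted p under 0.05, where 483 of 10498 genes did. No member was called for a knockdown effect that differed between lines (0.00952% of all genes). For this contrast, 1 member had an unadjusted p under 0.05, where 191 of 10503 genes did. In simulated data for this contrast, 0 of 200 changes of 1.25-fold and 187 of 200 of 2-fold were recovered. It therefore could not show a difference as small as 1.25-fold. The median standard error of a member was 0.04 on the log2 scale over both lines and 0.06 within a line. Apart from RPL21, RPSA and RPS10-NUDT3, the largest log2 change over both lines was 0.14 in size, and in simulated data 119 of 200 changes of 1.25-fold over both lines were recovered.

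The members leaned to slightly lower values in A498. The median log2 change (KD minus NTC) was -0.05 in A498 and -0.01 in 786-O, beside 0.01 and 0.01 over all genes tested. In A498 this median was -0.022 without siRNA2, -0.026 without the second NTC library, -0.069 without siRNA1 and -0.068 without the first NTC library. By library, the median of 85 members against the NTC mean of the line was -0.02 with siRNA1 and -0.07 with siRNA2 in A498, and -0.02 with siRNA1 and 0.02 with siRNA2 in 786-O. Both siRNA libraries lay below both NTC libraries for 29 of these members in A498 (16.7% of all genes) and above for 1 (20.7%), and in 786-O for 8 below (13.8%) and 2 above (19%). The library with the lowest median, siRNA2 in A498, was also the shallowest, and the part of depth was not tested. The siRNAs of 786-O differed in sign, and without siRNA1 the median change in 786-O was 0.02.

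**Figure D5:**
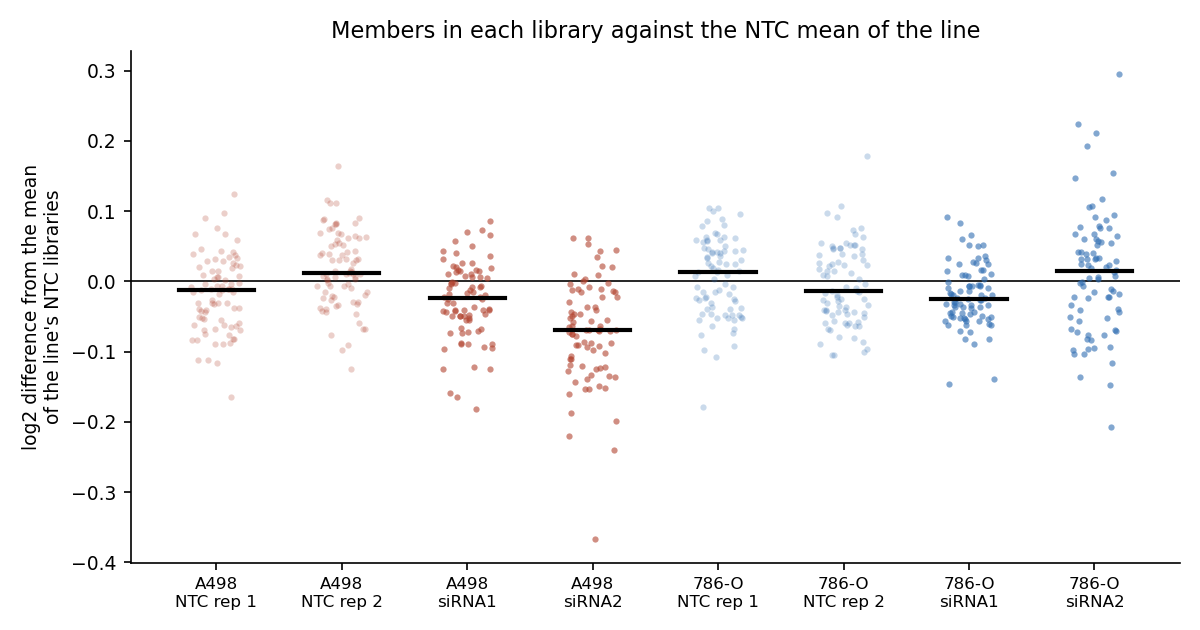
Log2 difference of 82 members from the mean of the NTC libraries of their line, in each of the 8 libraries; each point is 1 member and each bar the median, and RPL21, RPSA and RPS10-NUDT3, which spread further, are left out. The points of all libraries overlap, from -0.367 to 0.295, and the bar of siRNA2 in A498 is the lowest.

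The members with the largest changes over both lines were those with unsteady entries. RPL21 had a log2 change of -1.02 ± 1.30 and RPSA of -0.56 ± 0.44, both through low values with siRNA2 in A498 (0.00120 and 0.842 FPKM). The readthrough symbol RPS10-NUDT3 had 0.44 ± 0.21, at levels of 2.42 to 6.08 FPKM. Without siRNA1 in A498, which leaves siRNA2 as the sole A498 knockdown library, RPL21 was called lower with knockdown in A498 (-7.01 ± 0.58, adjusted p = 0.00416) and called for a difference between lines (adjusted p = 0.00783). The spread in that fit comes from the other groups, and the lone library is assumed to vary like them. With all libraries its change in A498 was -3.35 ± 1.84 (adjusted p = 0.774), and the locus sum given above was 128 FPKM with siRNA2.

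RPS15 (-0.14 ± 0.09), RPL13 (-0.10 ± 0.04) and RPL28 (-0.10 ± 0.05) had the next lowest values over both lines, and none was called. RPL22L1 (0.07 ± 0.07), RPS25 (0.05 ± 0.06), RPS27 (0.04 ± 0.05) and RPS27L (0.04 ± 0.05) had the highest after RPS10-NUDT3. The study lists RPS3A among the transcripts raised by at least 1.25-fold in both lines and with both siRNAs, a list drawn from these libraries. That list was made from transcripts, and the values here are sums over the coding entries of a gene, so the measures are not the same. Summed over its coding entries, RPS3A was at 311 and 349 FPKM in the A498 NTC libraries, 340 with siRNA1 and 332 with siRNA2, and at 299 and 277 FPKM in the 786-O NTC libraries, 280 with siRNA1 and 290 with siRNA2. The siRNA values lay between the NTC values in both lines (log2 change 0.01 ± 0.05), and every 36-base window of its coding sequence occurs elsewhere in the genome.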

How the data were processed

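RNA-seq libraries of 2 cell lines were used, 8 in all. Single-end reads of 36 bp were aligned by the authors to hg19 using TopHat2 2.0.0, and the deposited FPKM values came from Cufflinks 2.0.2 (versions from the submitters' processing notes), with 95% intervals and no stated scaling between libraries. Each library has 75378 entries. Cufflinks divides reads between overlapping entries, and since the files hold FPKM rather than counts, no count model was applied. The labels call the siRNAs pools and the methods name 2 separate siRNAs.

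Coding (NM) entries were given RefSeq symbols, which 97.7% of 35951 had, and FPKM was summed per symbol. Genes with a mean of at least 1 FPKM were tested on log2(FPKM + 0.1), a scale that understates changes of low genes, with limma 3.58.1 in R 4.3.3: a trend of the variance, 4 group means, and Benjamini-Hochberg adjustment at 0.05 over 10503 genes. The contrasts were A498 minus 786-O, knockdown over both lines and within each, and their difference. Depth was read from the Cufflinks interval as the implied number of reads, which came within 0.05 of a whole number for 77.7% of values under 10; it covers counting error only. Coordinates of genes are those of the files (hg19), and start sequences are from RefSeq. The fits were tested on simulated data with 200 changed genes among 10503: for the contrast of lines, 200 changes of 2-fold were recovered with 7 false calls and 122 of 1.25-fold with 12.

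The members and lists were chosen with earlier results of these data known. Named genes were the 12 members with the largest called difference in each direction, the paralogs and partners, the 5 largest and 5 smallest knockdown changes, the 5 highest and 5 lowest levels, fixed small lists (stalk, 5S, X-linked, short arm of chromosome 3, other subunits), RPS3A, and up to 6 called genes of each other list. Genes outside the rule, such as RPL13A's neighboring entries, RPS6, RPS9, RPL23, RPL27A, RPL31, RPL38, RPS13, RPL24, RPL35A, RPS26, RPS2 and MYC, were chosen after their values were seen. Alternatives were another pseudocount, filter, scaling, choice of entries, variance trend, replicate block, fits within a line, and leaving out each library. Some genes that are counted in the lists are not reported here by name.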

Additional observations from a re-analysis of the deposited data

Results flagged for a closer look

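Signals outside the entries compared were found at 3 loci of the members. At the RPL13A locus, the entry named RPL13AP5 held 416 to 530 FPKM and the non-coding RPL13A entry 221 to 269 FPKM, where the coding entries of RPL13A were near 0. At the RPL21 locus, the entry named RPL21P28 held 99 to 183 FPKM, more than the coding entry in every library. At the RPSA locus, a coding entry with no current symbol held 271 to 661 FPKM, and the named entry at most 7.59 FPKM. These values are given as measured, and which transcripts the reads came from was not tested. No member was called for a knockdown effect that differed between the lines, and groups of 2 libraries are too small for a search for outlying samples.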

How the results depend on the processing

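The number of members called between lines was 69 to 75 under 19 alternatives, against 74, and 71 to 75 when a library was left out. The summed FPKM ratio of 786-O to A498 ranged from 1.27 to 1.30. With knockdown, 0 members were called over both lines and in 786-O under every alternative. In A498, and for a difference between lines, the counts without a library were 0 to 1, where RPL21 was the call without siRNA1. The median knockdown change in 786-O was -0.01 and ranged from -0.0237 to 0.017 without a library, and that in A498 from -0.069 to -0.022. Of 44 genes named for the line difference, no direction turned under any alternative; RPL23A was among those that lost a call (adjusted p = 0.144 with the NTC libraries alone). RPSA gained one with the NTC libraries alone, with the unnamed entries added, and without siRNA1 of 786-O or of A498, and RPL26 gained one without siRNA2 of 786-O. Of 11 genes named for knockdown, RPS3A (-0.0045) turned under median ratio scaling. Without a library, the changes ranged from -2.85 to 0.808 for RPL21, -1.16 to 0.0282 for RPSA, -0.0145 to 0.149 for RPL22L1, -0.017 to 0.123 for RPS25, -0.0104 to 0.0969 for RPS27, -0.0041 to 0.0857 for RPS27L and -0.0343 to 0.0496 for RPS3A, so each changed sign. The causes were not tested.

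Whether the replicate numbers pair the libraries cannot be settled with 2 libraries in a group, and in the KD groups the number is the siRNA. The deviations of the tested genes from their group means were correlated between same-numbered libraries. The correlation was 0.254 between NTC and KD in A498 and -0.0312 in 786-O. It was -0.256 between the NTC groups and 0.175 between the KD groups. With the number as a replicate block, 74 members were called between lines and 0 with knockdown in every contrast, and the median knockdown change was -0.05 in A498 and -0.01 in 786-O.

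Depth limits the low members, and the copies of many members limit what 36-base reads can assign. Of 200 changes of 1.25-fold, 38 were recovered in the simulation of knockdown in A498 and 0 in that of a difference between lines in the knockdown effect.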
